A study of Mus musculus with 2 samples.

Results

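The endocytic and hyaluronan receptor genes Mrc1, Cd163, Lyve1, Stab1, Stab2, Msr1, Colec12, Scarb1 and Cd44 were followed across the cell types of the mouse heart with and without PD-1 inhibitor. They were chosen by name, as receptors that take up modified lipoproteins, glycoproteins, haemoglobin complexes or hyaluronan, and make 9 of the 32589 genes in the data. Single-nucleus RNA sequencing (snRNA-seq) was performed on whole hearts of C57BL/6 males that were 8 weeks old when dosing began, and the labels name no transgene or deletion in either group. The PD-1 inhibitor group received an anti-mouse PD-1 antibody intraperitoneally at 5 mg/kg on days 1 and 14 of a 28-day cycle, and the control group received PBS on the same days. Each group had 1 library, made with the GEXSCOPE nucleus kit, and the number of hearts in a library is not given in the sources used here. With 1 library per group, no difference between the groups can be tested against the spread between hearts, and each interval below is a 95% interval for counting error only.

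These receptors clear material from tissue fluid and blood. Mrc1 encodes the mannose receptor, Cd163 the receptor for haptoglobin-haemoglobin complexes, and Lyve1 a hyaluronan receptor of lymphatic vessels that tissue-resident macrophages near vessels also carry. Stabilin-1 (Stab1) and stabilin-2 (Stab2) are large multi-domain receptors of macrophages and of sinusoidal and lymphatic endothelium, Msr1 and Colec12 belong to the class A scavenger receptors and the collectins, Scarb1 is the HDL receptor SR-BI, and Cd44 is the widespread hyaluronan receptor of leukocytes and mesenchymal cells.

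The control and PD-1 inhibitor libraries held 10197 and 7967 barcodes, of which 9482 and 7619 nuclei were kept, with a median of 1013 and 1055 unique molecular identifiers (UMIs, 1 for each captured transcript molecule) per nucleus. The libraries shared 48 barcodes. The 9 genes were left out of the variable genes before clustering, so that no receptor helped to define the cell type in which it was counted. Cluster names below stand for clusters that are like these cell types by their markers. Macrophages were 1071 control and 782 PD-1 inhibitor nuclei with a UMI median of 876 and 939.5, and detected 12 of 13 macrophage markers. Lymphatic endothelial cells (ECs) were 230 and 156 nuclei, detected 8 of 9 lymphatic markers, led by Mmrn1 and Reln, but only 3 of 12 general EC markers. Dendritic cells were 179 and 99 nuclei led by Cd209a, Klri1, Gpr141, Clec9a and Flt3, and among mononuclear phagocytes (MPs) also by the proliferation genes Mki67 and Top2a. Levels are UMIs summed over the nuclei of a type and scaled to the total UMIs of those nuclei (CPM), and they are compared between cell types for 1 gene at a time.

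RefSeq (GRCm38.p6) gave a promoter window, from 250 bases before to 50 bases after the start, for 5 of the 9 genes: Mrc1, Cd163, Stab1, Stab2 and Cd44. The windows of 4 genes are printed 5′ to 3′ on the gene's strand, those of 3 macrophage receptors and that of Cd44, whose level went the other way in the PD-1 inhibitor library. Capitals mark AGGAAG or its reverse complement CTTCCT, the core bound by PU.1, the factor that macrophages need to develop. The windows lie at chr2:14229164-14229463 (plus strand, Mrc1), chr6:124304401-124304700 (plus strand, Cd163), chr14:31168592-31168891 (minus strand, Stab1) and chr2:102901616-102901915 (minus strand, Cd44).
Mrc1: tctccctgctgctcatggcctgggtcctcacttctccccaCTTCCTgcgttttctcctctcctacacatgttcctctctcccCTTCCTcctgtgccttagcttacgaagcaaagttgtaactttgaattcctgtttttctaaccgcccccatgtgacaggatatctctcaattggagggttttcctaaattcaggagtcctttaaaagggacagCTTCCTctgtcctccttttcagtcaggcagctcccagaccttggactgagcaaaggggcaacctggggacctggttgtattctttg
Cd163: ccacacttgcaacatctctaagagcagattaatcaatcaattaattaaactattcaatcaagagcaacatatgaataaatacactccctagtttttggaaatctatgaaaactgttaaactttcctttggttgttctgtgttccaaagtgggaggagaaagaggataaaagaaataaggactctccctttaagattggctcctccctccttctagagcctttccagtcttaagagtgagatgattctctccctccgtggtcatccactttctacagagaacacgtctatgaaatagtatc
Stab1: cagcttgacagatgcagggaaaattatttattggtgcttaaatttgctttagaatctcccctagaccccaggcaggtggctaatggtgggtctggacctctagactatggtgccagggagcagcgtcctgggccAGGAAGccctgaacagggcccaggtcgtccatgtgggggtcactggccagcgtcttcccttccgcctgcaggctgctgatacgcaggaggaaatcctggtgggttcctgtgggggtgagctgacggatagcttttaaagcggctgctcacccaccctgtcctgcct
Cd44: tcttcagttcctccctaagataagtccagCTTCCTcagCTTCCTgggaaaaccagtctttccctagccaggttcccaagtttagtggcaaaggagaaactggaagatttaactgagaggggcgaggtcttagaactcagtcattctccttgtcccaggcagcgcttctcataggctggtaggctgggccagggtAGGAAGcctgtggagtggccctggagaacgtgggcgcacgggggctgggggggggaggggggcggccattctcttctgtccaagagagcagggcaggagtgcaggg
The core stood 3 times in the Mrc1 window, 3 times in the Cd44 window, 1 time in that of Stab1, 1 time in that of Stab2 and not in that of Cd163, against 35.1% of all 27025 promoter windows with at least 1 copy on either strand. The Cd163 window was 38.0% G and C, compared to a median of 52.7% over all windows, and those of the other 4 genes ranged from 50.3% to 58.0%. The half-site of MAF factors, TGCTGA, was in the Stab1 window alone (19.1% of all windows), the GC box GGGCGG in those of Mrc1 and Cd44 (35.9%), and the E-box CANNTG in those of Mrc1, Cd163 and Stab1 (72.1%). None of the 5 windows held the AP-1 motif TGANTCA (7.93%) or TATAAA (14.2%), on either strand.

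All 9 are protein-coding genes in GENCODE vM21 on GRCm38, the build that the submitters' processing notes name. Lyve1 is the shortest at 12.633 kb (chromosome 7, 110850607 to 110863239), followed by Cd163 at 25.872 kb (chromosome 6, 124304656 to 124330527) and Stab1 at 29.629 kb (chromosome 14, 31139013 to 31168641). Msr1 spans 60.989 kb (chromosome 8, 39581685 to 39642673), Scarb1 64.008 kb (chromosome 5, 125277087 to 125341094) and Cd44 90.525 kb (chromosome 2, 102811141 to 102901665). Mrc1 spans 102.666 kb (chromosome 2, 14229392 to 14332057), Stab2 166.828 kb (chromosome 10, 86841198 to 87008025) and Colec12 175.05 kb (chromosome 18, 9707595 to 9882644). Stab1 overlaps Nt5dc2 on the opposite strand (150 UMIs in both libraries together), and Stab2 overlaps 3 antisense genes, of which Gm16271 had 28 UMIs. Whether reads were counted by strand is not given, so these UMIs cannot be told apart from those of a partner gene.

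The mannose receptor and the haemoglobin receptor were genes of the MPs. Mrc1 stood at 2487 CPM (95% interval 2395 to 2582) in control macrophages and 2765 (2655 to 2879) in PD-1 inhibitor macrophages, and 75.1% and 78.6% of these nuclei had a UMI. Dendritic cells followed with 1230 and 1126 CPM, and lymphatic ECs with 241 and 242. Macrophages held 79.1% of the Mrc1 UMIs of the control library and 80.3% of those of the PD-1 inhibitor library. In cardiomyocytes, which should lack the gene, Mrc1 was at 47.2 and 32.3 CPM. A UMI was found in 6.20% and 5.19% of these nuclei, which were of higher depth (medians 1406.5 and 1432 UMIs). Whether free RNA in the suspension gave this level was not tested. After thinning to 500 UMIs the shares were 2.43% and 1.30% in cardiomyocytes, 1.85% and 1.92% in endocardial ECs, 1.82% and 2.30% in capillary ECs and 1.82% and 1.88% in fibroblasts. In the PD-1 inhibitor library endocardial and capillary ECs (65 and 27 UMIs, the latter 40.7 CPM) stood above cardiomyocytes by level, and no expression was read from values of this size.

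Cd163 was likewise concentrated, with 85.0% and 83.3% of its UMIs in macrophages. It stood there at 715 CPM (666 to 767) in the control library and 1111 (1041 to 1184) in the PD-1 inhibitor library. Dendritic cells had 189 and 308 CPM, from 42 and 47 UMIs. Outside the MPs the highest level was that of T cells in the PD-1 inhibitor library, 62.7 CPM from 12 UMIs, and cardiomyocytes were at 10.3 and 17.9 CPM with a UMI in 1.65% and 2.69% of nuclei.

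The hyaluronan receptor Lyve1 marked 2 very different cell types. It was highest in lymphatic ECs, at 1587 CPM (1437 to 1749) in the control library and 2156 (1959 to 2368) with PD-1 inhibitor, 3.27 and 2.52 times its level in macrophages. The macrophage levels were 485 CPM (445 to 528) and 856 (795 to 921). Macrophages, with more nuclei, held 38.3% and 44.9% of all Lyve1 UMIs and lymphatic ECs 29.3% and 27.0%. Endocardial ECs, which line the heart chambers, were lower again, at 194 (169 to 221) and 173 (152 to 196) CPM, with a UMI in 11.0% and 10.8% of nuclei, above the 2.36% and 3.06% of cardiomyocytes. Dendritic cells, with 11 and 28 Lyve1 UMIs, were at 49.4 and 183 CPM.

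The stabilins differed from each other. Stab1 was shared by macrophages and vessel-lining cells. In the control library lymphatic ECs (1308 CPM) and macrophages (1267 CPM) had overlapping intervals, and in the PD-1 inhibitor library macrophages (1399 CPM) were above lymphatic ECs (1076 CPM). Endocardial ECs followed with 604 and 612 CPM and the EC cluster led by Wnt9b and Hapln1 with 557 and 507 CPM, and the intervals of these EC types overlapped in both libraries. Capillary ECs were at 170 and 148 CPM, while cardiomyocytes were at 44.3 and 45.2. Stab2 was rare, with 63 and 34 UMIs in all nuclei, of which lymphatic ECs held 32 and 13. This gave 124 CPM (84.9 to 175) and 64.2 CPM (34.2 to 110) in lymphatic ECs. T cells were next with 9 and 5 UMIs, below the lymphatic interval in the control library (17.5 to 72.8 CPM) and overlapping it in the PD-1 inhibitor library. Macrophages had 5 and 3 Stab2 UMIs.

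Cd44 was a gene of dendritic cells, T cells and macrophages. Dendritic cells had 777 CPM (665 to 902) in the control library and 523 (415 to 651) in the PD-1 inhibitor library. T cells (371 and 329 CPM) and macrophages (370 and 250 CPM) had overlapping intervals in both libraries, and B cells were at 198 and 115 CPM. Mesothelial cells, which cover the heart, had 86.7 and 73.6 CPM and fibroblasts 48.1 and 47.1, against 22.8 and 18.9 in cardiomyocytes.

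The class A receptor Msr1 and the collectin Colec12 shared macrophages and differed elsewhere. Msr1 was at 301 CPM (269 to 335) and 371 (331 to 414) in macrophages and at 94.3 and 242 CPM in dendritic cells, and macrophages held 82.4% and 80.6% of its UMIs. Colec12 was mesenchymal first. Fibroblasts held 51.4% of its UMIs in the control library, and their levels were 327 (307 to 348) and 354 (331 to 378) CPM. Together with them, mesothelial cells (272 and 323 CPM), smooth muscle cells (246 and 362 CPM) and macrophages (295 and 307 CPM) formed an order of levels in which the intervals of neighbours overlapped in both libraries. T cells, which should lack Colec12, had 12.8 and 31.4 CPM, with a UMI in 0.847% and 2.65% of nuclei at medians of 848.5 and 884 UMIs. Among types with at least 50 nuclei in each library, the HDL receptor Scarb1 was highest in capillary ECs, at 169 CPM (144 to 197) and 158 (129 to 191). Arterial ECs, with 8 UMIs in each library, overlapped this level, and endocardial ECs (57.2 and 38.8 CPM) and macrophages (48.9 and 51.8 CPM) were below it. Adipocytes, with 154 and 16 nuclei, had 102 and 178 CPM, and T cells, which should lack the gene, 17.0 and 31.4 CPM.

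**Figure D1:**
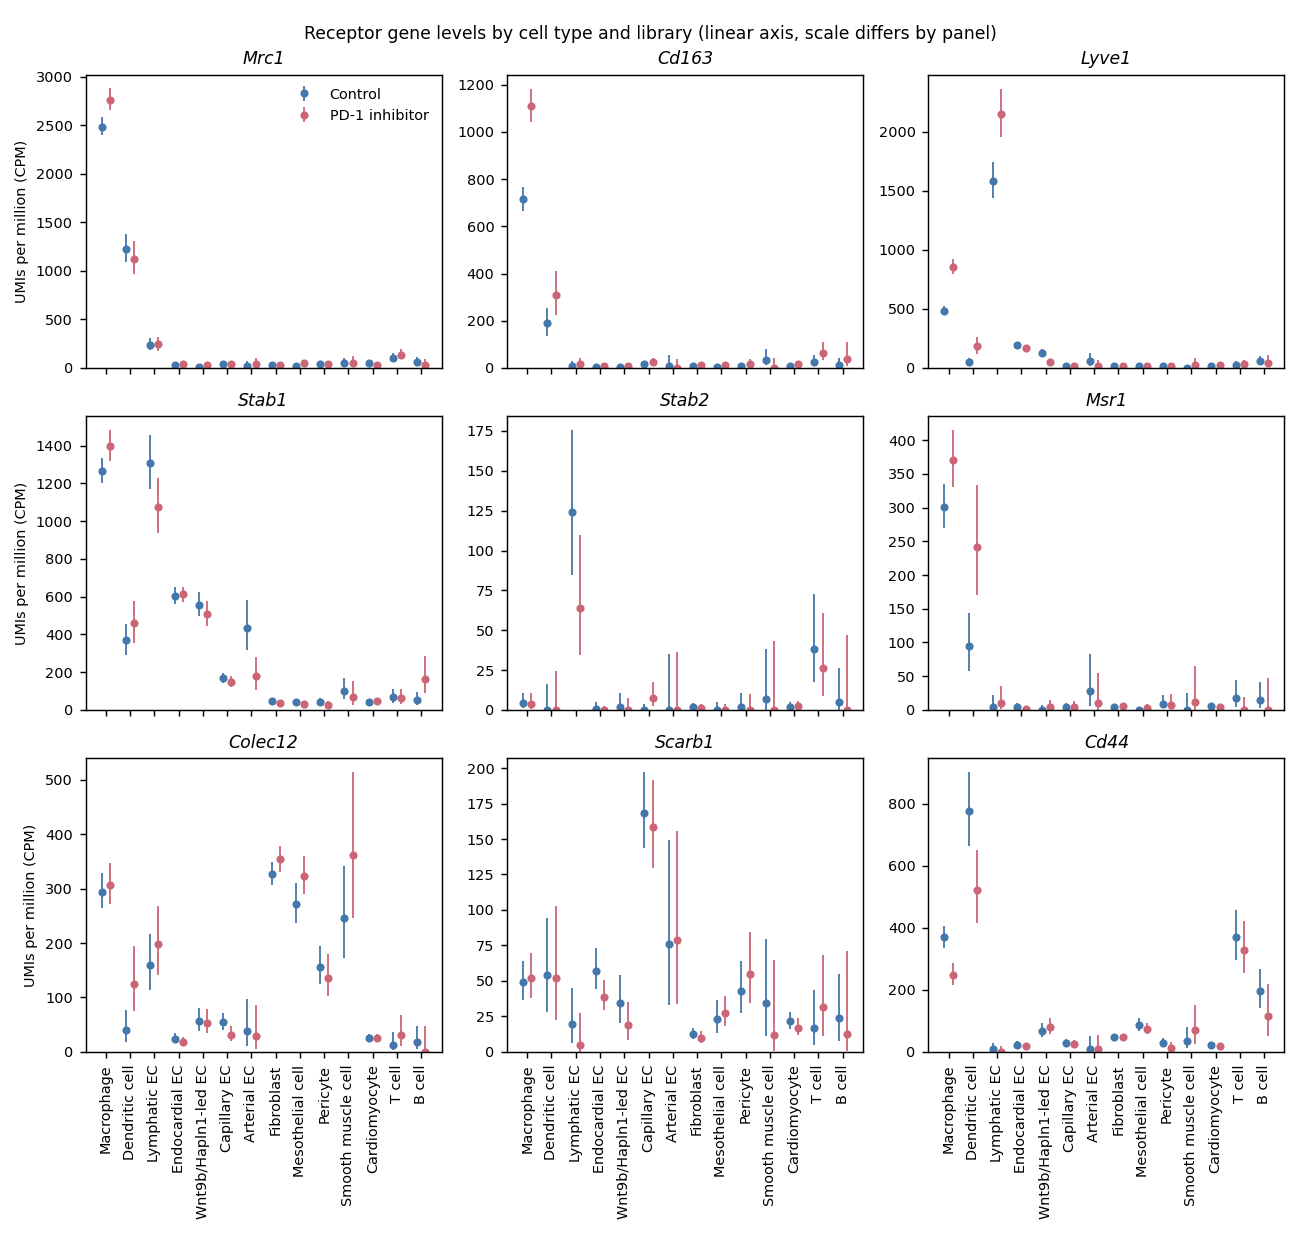
Each panel plots the level of 1 receptor gene in CPM (linear axis starting at 0, with its own scale) in 14 cell types, for the control library (blue) and the PD-1 inhibitor library (red), with exact 95% Poisson intervals that cover counting error only. Mrc1, Cd163 and Msr1 peak in macrophages, Lyve1 and Stab2 in lymphatic ECs, Cd44 in dendritic cells and Scarb1 in capillary ECs.

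To examine what accompanied PD-1 inhibitor treatment, the libraries were compared in macrophages first. Cd163 and Lyve1 were higher in the PD-1 inhibitor library, Cd44 was lower, and the 5 other receptors that had enough UMIs differed less. Lyve1 had 535 control and 727 PD-1 inhibitor UMIs, a level 1.77-fold higher (log2 ratio 0.82, interval 0.66 to 0.98). Cd163 had 789 and 943 UMIs, a level 1.55-fold higher (log2 ratio 0.63, 0.50 to 0.77). The log2 ratio of Lyve1 was above that of 97.6% of the genes with at least 50 UMIs in macrophages, and that of Cd163 above that of 93.9%.

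With a gene counted as past 1.5-fold when it had at least 50 UMIs in both libraries together, 2 of 8 receptor genes were higher in macrophages, compared to 7.37% of all 7169 genes, and 0 of 8 were lower, compared to 7.18%. The median log2 ratio was 0.15 over the 8 receptors and -0.04 over all genes. Cd44 stopped just short, with 408 and 212 UMIs and a level 0.676-fold that of the control library (log2 ratio -0.57, -0.81 to -0.32), lower than that of all but 8.03% of genes. Msr1 had a log2 ratio of 0.30 (0.07 to 0.53), Mrc1 of 0.15 (0.07 to 0.23) and Stab1 of 0.14 (0.03 to 0.26). For Colec12 (0.06, -0.18 to 0.30) and Scarb1 (0.09, -0.53 to 0.68) the interval included no difference. Stab2, with 8 UMIs in macrophages, did not reach the minimum.

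**Figure D2:**
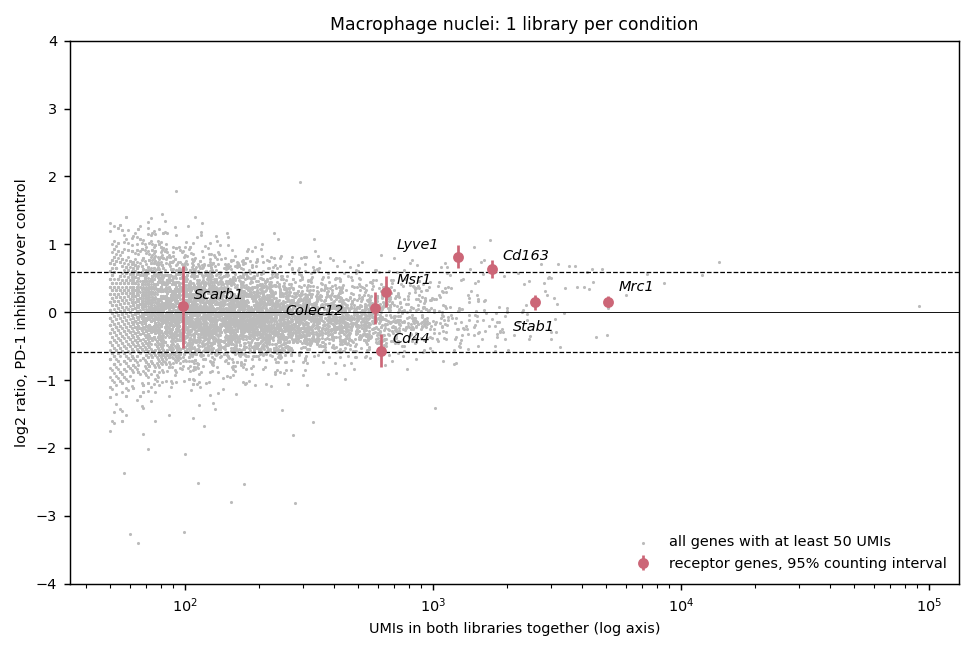
The log2 ratio of PD-1 inhibitor over control (vertical axis) is plotted against the UMIs of a gene in the macrophages of both libraries together (horizontal log axis), with all 7169 genes in grey and 8 receptor genes in red with 95% counting intervals. Lyve1 at 0.82 and Cd163 at 0.63 lie above the dashed line of 1.5-fold, and Cd44 at -0.57 lies just inside the lower one.

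For Cd163 and Lyve1 both the share of nuclei with a UMI and the UMIs in each such nucleus were higher. Lyve1 was found in 23.6% of control macrophages (21.1 to 26.3) and 34.1% of PD-1 inhibitor macrophages (30.8 to 37.6), and after each nucleus was thinned to 500 UMIs, the lowest total of any nucleus, in 15.9% and 25.3%. Cd163 was found in 32.2% and 39.3%, and in 23.6% and 29.3% after thinning. Nuclei with a UMI held a mean of 2.11 and 2.72 Lyve1 UMIs and of 2.29 and 3.07 Cd163 UMIs. Cd44 went the other way in the share alone, 22.6% and 16.6% (14.4% and 8.95% after thinning), with a mean of 1.69 and 1.63 UMIs.

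Other measures moved with these ratios, and their part in them was not tested. In macrophages 4 of 14 MP markers were past 1.5-fold higher and none lower, with sums of 9963 CPM (control) and 13454 CPM (PD-1 inhibitor), and 5 of 13 macrophage markers were higher (11111 and 15251 CPM). Among all genes with enough UMIs in macrophages, 7.37% were past 1.5-fold higher. Of the 12 dendritic markers 3 of the 5 with enough UMIs were higher (9492 and 15320 CPM), while Xcr1 and Irf8 had no UMI in macrophages of either library. Irf8 had none in the dendritic cells of either library, so its absence does not set macrophages apart from them. Cardiomyocyte markers summed to 4261 and 4701 CPM, and mitochondrial UMIs were 0.667% and 0.950%. Short genes had higher ratios than long ones: of 5 equal bins of genes by length, the shortest had a median log2 ratio of 0.18 and the longest of -0.21. Lyve1 lay in the bin with a median of 0.05 and Cd163 in the one with a median of -0.03, and Cd44 lay in the longest, with Mrc1 and Colec12. In cardiomyocytes Cd163 and Lyve1 also stood higher in the PD-1 inhibitor library, at 17.9 against 10.3 CPM and at 24.4 against 15.7 CPM.

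The ratios of Lyve1, Cd163 and Cd44 were smaller in size in 1 other clustering. When each library was clustered alone, 926 control and 856 PD-1 inhibitor nuclei were macrophages and 279 and 0 were dendritic cells, so that the classes of the 2 libraries were unlike, and the log2 ratios were 0.42 for Lyve1, 0.37 for Cd163 and -0.16 for Cd44. In that setting no receptor was past 1.5-fold, while these 3 ratios kept their direction. The ratios of Mrc1 (-0.04), Stab1 (-0.08) and Colec12 (-0.32) turned negative there, outside the counting intervals of the reported ratios. At a Leiden resolution of 0.5, where the 179 and 99 dendritic nuclei joined the macrophages, Cd163 and Lyve1 were both past 1.5-fold.

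Macrophages were then split into sub-clusters, again without the receptor genes, to see where Lyve1, Cd163 and Cd44 differed. The largest sub-cluster, led by Ltc4s and Wfdc17, held 628 control and 455 PD-1 inhibitor nuclei, 58.6% and 58.2% of the macrophages. The next, led by Ipcef1 and with Ccr2 and Cx3cr1 among its leading genes, held 409 and 313 nuclei (38.2% and 40.0%). Lyve1 belonged to the first, with a UMI in 32.2% of its control and 47.9% of its PD-1 inhibitor nuclei (log2 ratio of levels 0.83, 0.65 to 1.01), compared to 11.0% and 13.4% in the second (0.30, -0.13 to 0.73). Cd163 was higher in both, with log2 ratios of 0.55 (0.39 to 0.71) and 0.77 (0.49 to 1.05). Cd44 was lower in both, with log2 ratios of -0.77 (-1.15 to -0.40) and -0.38 (-0.74 to -0.04). The other 2 sub-clusters had 40 and 8 nuclei and were not compared.

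A finer split gave 12 sub-clusters, of which 11 had at least 20 nuclei in both libraries together. Across these, the Cd163 level was higher with PD-1 inhibitor in 11 of 11 (log2 ratios 0.04 to 1.90), Lyve1 in 8 of 11 (-0.35 to 1.46), and Cd44 was lower in 10 of 11 (-2.34 to 0.02). For Cd163 and Lyve1 the counting interval included no difference in several sub-clusters. For Cd44 it did so in all but the sub-cluster led by Adgrf5 and Uqcrfs1 (36 and 6 UMIs, -2.34, -3.98 to -1.18). The leading genes of that sub-cluster also included the EC marker Pecam1 and the B cell marker Ebf1, and whether it held mixed nuclei was not tested. The sub-clusters share the same 2 libraries and are no replicates of each other. The one with the highest Lyve1, led by Wfdc17 and Ltc4s with the resident macrophage genes Fcna, Folr2 and Pf4 among its leading genes, made 8.87% of control and 19.1% of PD-1 inhibitor macrophages, and Lyve1 within it stood at 1570 and 2123 CPM (log2 ratio 0.43, 0.16 to 0.71). Another, led by Ccr2 and Retnla with the MHC class II gene H2-Eb1 among its leading genes, made 5.04% and 18.3%. Lyve1 within that one stood at 875 and 693 CPM (log2 ratio -0.35, -0.90 to 0.25). With the same mix of these finer sub-clusters in both libraries, the log2 ratio of Lyve1 in macrophages was 0.42 in place of 0.82. Both the share of macrophages in the sub-cluster led by Wfdc17 and Ltc4s and the Lyve1 level within it were higher in the PD-1 inhibitor library. Since each group is 1 library, a sub-cluster mostly of 1 library may be that library.

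**Figure D3:**
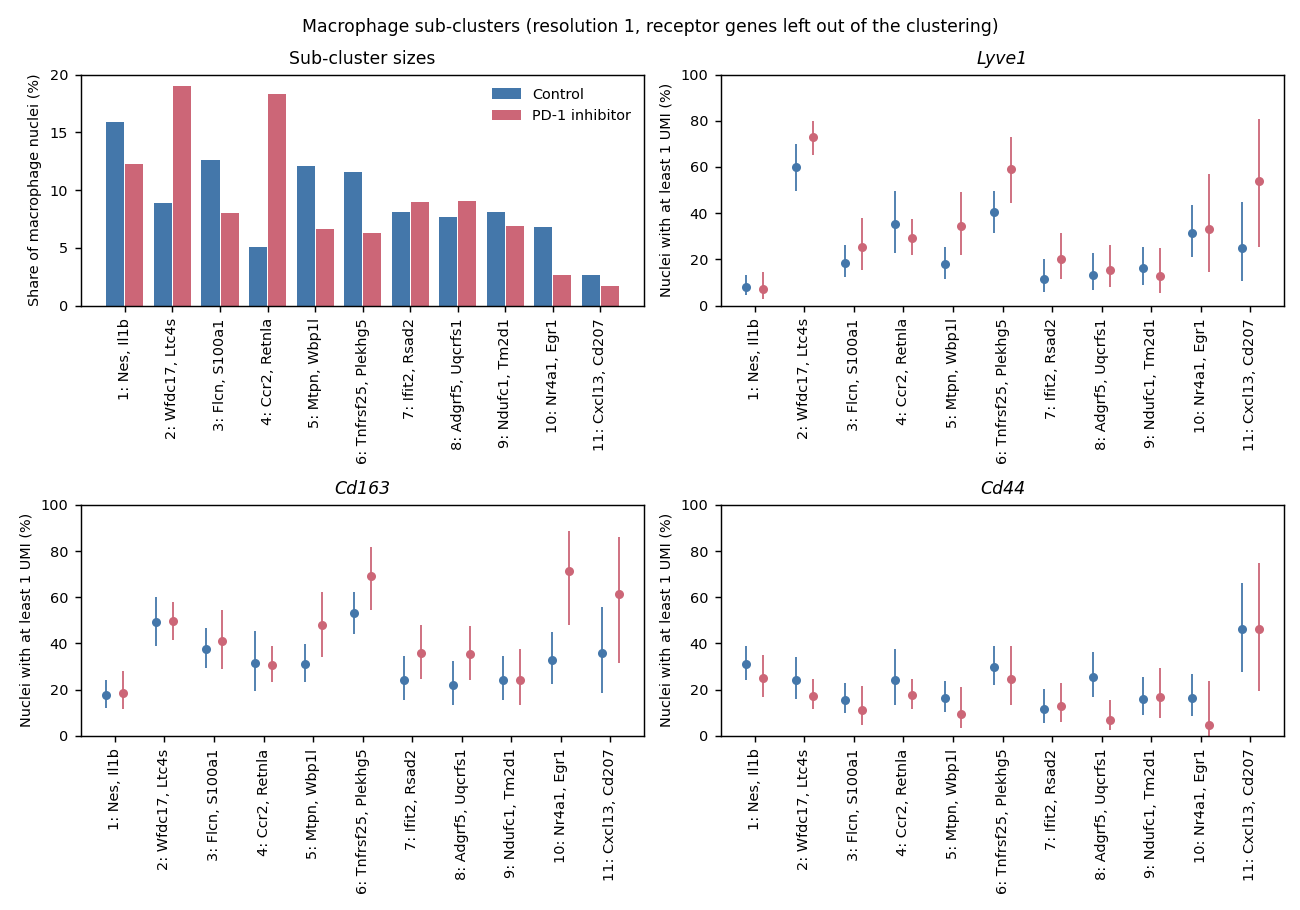
The first panel plots the share of macrophage nuclei (percent, from 0) in each of 11 finer sub-clusters named by leading genes, and the others the share of nuclei with a UMI of Lyve1, Cd163 and Cd44 with exact 95% binomial intervals, for the control (blue) and PD-1 inhibitor (red) libraries. Lyve1 peaks in the sub-cluster led by Wfdc17 and Ltc4s, at 60.0% and 73.2%.

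Lyve1-positive macrophages carried more of the resident macrophage genes than the remaining macrophages. After thinning to 500 UMIs, Folr2, the folate receptor of resident macrophages, was found in 27.1% of nuclei with Lyve1 and 9.66% of those without in the control library, and with PD-1 inhibitor in 33.3% and 14.9%. F13a1, coagulation factor XIII A, was found in 78.2% against 53.5% and in 83.3% against 53.1%. Ccr2, the chemokine receptor of monocyte-derived cells, went the other way, with 1.18% against 4.77% and 0.505% against 7.71%. The MHC class II gene H2-Eb1 was likewise less frequent beside Lyve1, in 51 of 170 control nuclei with Lyve1 against 45.4% of those without, and with PD-1 inhibitor in 35.4% against 59.1%. Cd163 was found in 31.2% against 22.2% of control nuclei and 36.9% against 26.7% of PD-1 inhibitor nuclei. These shares rest on 170 and 198 nuclei with a Lyve1 UMI after thinning, and nuclei with and without it had median depths of 890 and 869 UMIs in the control and 981 and 928 UMIs in the PD-1 inhibitor library.

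In lymphatic ECs Lyve1 was again the receptor with the higher level in the PD-1 inhibitor library. Lyve1 had 409 and 437 UMIs there, with a UMI in 56.1% of control and 71.8% of PD-1 inhibitor nuclei (45.7% and 53.9% after thinning) and a log2 ratio of 0.44 (0.24 to 0.64). Lyve1 lay in the bin of shortest genes there, whose median log2 ratio was 0.26. Stab1, at 337 and 218 UMIs, was slightly lower (log2 ratio -0.28, -0.53 to -0.03). A difference in Mrc1 was not detectable at this depth (62 and 49 UMIs, 0.01, -0.56 to 0.57), and Colec12 had a log2 ratio of 0.31 (-0.35 to 0.98). Stab2, with 32 and 13 UMIs, was under the minimum (-0.92, -2.01 to 0.02). None of the 4 receptors with enough UMIs was past 1.5-fold in either direction, compared to 22.7% of 2323 genes. Cardiomyocyte markers moved with these values, with 6 of 11 past 1.5-fold higher and a sum of 3920 and 5413 CPM, and their part was not tested. Cd44, the other hyaluronan receptor, had 2 UMIs in control and 0 in PD-1 inhibitor lymphatic ECs, and 0 of 156 nuclei allows a share of nuclei with a UMI of up to 1.92% (3 counts).

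Over all ECs together the levels of Stab1 and Lyve1 differed little between the libraries. Stab1 had a log2 ratio of -0.02 (-0.12 to 0.08) and Lyve1 of 0.05 (-0.10 to 0.20). Of 8 receptors with enough UMIs, 2 were past 1.5-fold, Cd163 higher at 8.41 and 13.1 CPM and Stab2 lower at 11.4 and 6.22 CPM, compared to 10.5% of 10697 genes. The Cd163 level was no higher than in cardiomyocytes. Scarb1 had a log2 ratio of -0.48 (-0.76 to -0.20) over all ECs, with -0.56 (-1.10 to -0.02) in endocardial ECs and -0.09 (-0.46 to 0.27) in capillary ECs, where the gene was highest. Capillary ECs were 991 of 2801 control and 696 of 2510 PD-1 inhibitor EC nuclei. With the same mix of clusters in both libraries, the Scarb1 ratio over all ECs was -0.29. In endocardial ECs Lyve1 was at -0.16 (-0.43 to 0.10) and Stab1 at 0.02 (-0.13 to 0.16).

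Lower levels were found for single receptors in single EC clusters. Lyve1 had 68 UMIs (129 CPM) in the control and 26 UMIs (53.8 CPM) in the PD-1 inhibitor nuclei of the Wnt9b-led cluster, a log2 ratio of -1.25 (-1.98 to -0.59), although the shares of nuclei with a UMI were 7.86% and 6.43%. That cluster rests on 3 of 7 markers and was absent in several other clusterings. Stab1 had 46 and 18 UMIs in arterial ECs (-1.27, -2.17 to -0.48), and Colec12 had 52 and 21 UMIs in capillary ECs (-0.77, -1.60 to -0.04). In the Wnt9b-led cluster 1 of 4 receptors with enough UMIs was past 1.5-fold lower, compared to 7.92% of all genes. The counts were 1 of 1 in arterial ECs (13.6% of all genes) and 1 of 4 in capillary ECs (7.45%).

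**Figure D4:**
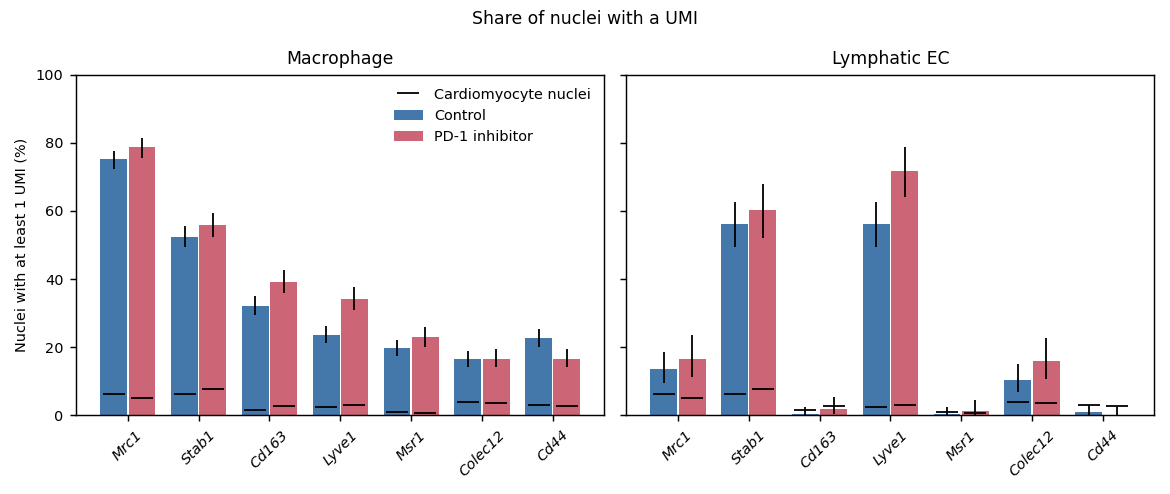
Bars give the share of nuclei with a UMI (percent, from 0) of 7 receptor genes in macrophages and lymphatic ECs, in the control (blue) and PD-1 inhibitor (red) libraries, with exact 95% binomial intervals, and black dashes the share in cardiomyocytes of the same library. Lyve1 stands at 56.1% and 71.8% in lymphatic ECs and at 23.6% and 34.1% in macrophages, and Cd44 is at the cardiomyocyte level or below in lymphatic ECs.

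In dendritic cells Cd44 was lower and Cd163 and Msr1 were higher in the PD-1 inhibitor library. Cd44, whose level was highest in these cells, had 173 and 80 UMIs, with a UMI in 41.9% and 36.4% of nuclei and a log2 ratio of -0.56 (-0.97 to -0.18). In the PD-1 inhibitor library the interval of its level overlapped that of T cells. Msr1 had 21 and 37 UMIs (1.35, 0.55 to 2.21) and Cd163 42 and 47 UMIs (0.70, 0.07 to 1.34). These 2 of 5 receptors with enough UMIs were past 1.5-fold higher, compared to 10.7% of 1860 genes. Mrc1 was at -0.13 (-0.41 to 0.15). When nuclei with fewer than 500 genes were left out, the Cd163 ratio in dendritic cells turned to -0.64. At a Leiden resolution of 2 the ratio of Msr1 was 0.44, that of Cd163 0.43 and that of Mrc1 -0.77. The Cd44 ratio moved outside its interval in 3 of 12 alternatives. It ranged from -1.37 after thinning to -0.18 with at least 500 genes per nucleus. Macrophage markers moved with these ratios, with 4 of 9 past 1.5-fold higher and a sum of 4275 and 5464 CPM, as did 3 of 12 MP markers, and their part was not tested.

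Colec12 differed little in the mesenchymal cells that carry most of it. In fibroblasts 971 and 879 UMIs gave a log2 ratio of 0.12 (-0.02 to 0.25). In mesothelial cells it had 213 and 334 UMIs, with a UMI in 23.0% and 31.0% of nuclei and a ratio of 0.25 (-0.00 to 0.51). Of 7 receptors with enough UMIs in fibroblasts 1 was past 1.5-fold, compared to 9.58% of 10581 genes. It was Lyve1, at 12.8 and 19.3 CPM, no higher than in cardiomyocytes. Mrc1 in mesothelial cells, at 17 and 52 UMIs, had a ratio of 1.19 (0.40 to 2.10) at shares of 2.74% and 6.33%, compared to 6.20% and 5.19% in cardiomyocytes, where the Mrc1 ratio was -0.54 (-1.01 to -0.09). Cd44 in fibroblasts was at -0.03 (-0.40 to 0.33) and in T cells at -0.17 (-0.66 to 0.31), and over all nuclei its ratio was -0.44 (-0.58 to -0.30). Of the 9482 control and 7619 PD-1 inhibitor nuclei, 179 and 99 were dendritic cells and 176 and 79 B cells. Macrophages were 1071 and 782 and T cells 236 and 189. The part of this mix in the Cd44 ratio over all nuclei was not tested.

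**Figure D5:**
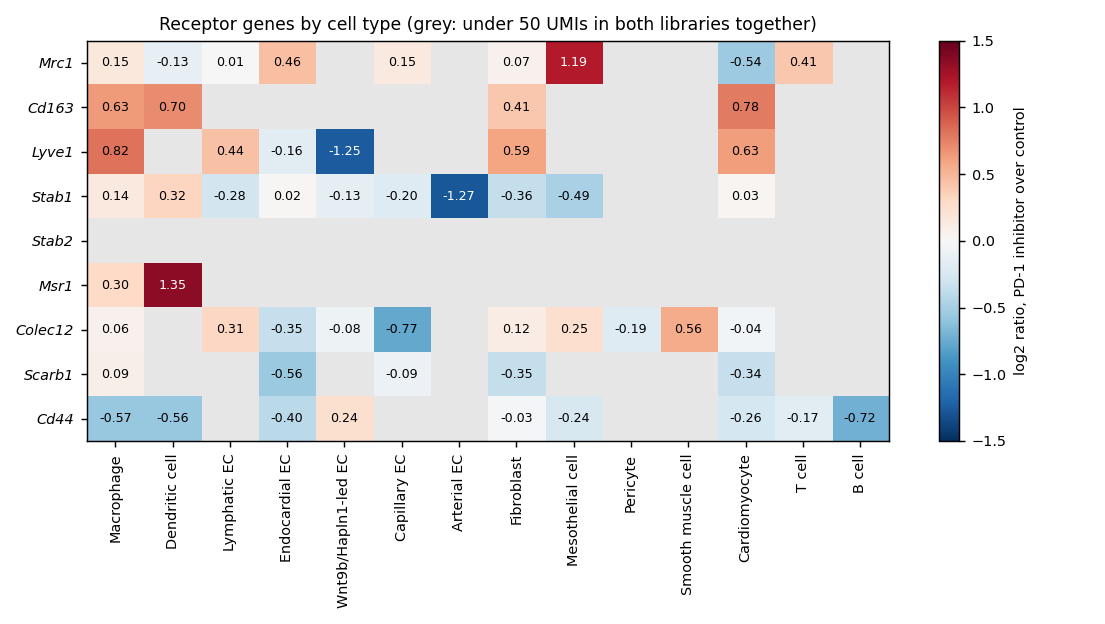
Each cell gives the log2 ratio of PD-1 inhibitor over control for a receptor gene (vertical axis) in a cell type (horizontal axis), with red for higher, blue for lower and grey for fewer than 50 UMIs in both libraries together. Lyve1 stands at 0.82 in macrophages and -1.25 in the Wnt9b-led ECs, and Cd44 at -0.57 in macrophages and -0.56 in dendritic cells.

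Genes of related functions were read in macrophages. Of 14 genes of the resident macrophage programme, 13 had enough UMIs and 5 were past 1.5-fold higher, with none lower, compared to 7.37% higher among all genes, and a median log2 ratio of 0.37, compared to -0.04. They were Pf4, the chemokine platelet factor 4 (531 and 1035 CPM, 0.96), Folr2 (323 and 552 CPM, 0.77), the growth factor Igf1 (202 and 326 CPM, 0.69), the ficolin Fcna (92.5 and 147 CPM, 0.67) and the chemokine Ccl24 (36.3 and 90.7 CPM, 1.31). Ccr2, which marks monocyte-derived cells, was also higher, at 25.3 and 76.6 CPM (1.57, 0.70 to 2.57) in the sub-cluster led by Ltc4s and at 234 and 477 CPM (1.02, 0.67 to 1.39) in the one led by Ipcef1. Of 14 genes that handle haem, iron and HDL, 10 had enough UMIs and 2 were higher, against the same 7.37%, the iron exporter Slc40a1 (65.3 and 98.9 CPM, 0.60) and the ferritin light chain Ftl1 (466 and 736 CPM, 0.66). Ftl1 was also higher in ECs (0.49), fibroblasts (0.51) and lymphatic ECs (1.12).

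Of 15 other scavenger receptor genes, 6 had enough UMIs and none was past 1.5-fold, with a median of 0.19. Beside this list and the next ones, 7.37% of all 7169 genes in macrophages were past 1.5-fold higher and 7.18% lower. The median log2 ratio over all these genes was -0.04. The lipid receptor Cd36 was at 344 and 449 CPM (0.39), the lysosomal Cd68 at 251 and 349 CPM (0.47) and Lrp1 at 509 and 629 CPM (0.30). Of 10 mannose receptor and lectin genes 4 had enough UMIs, none past 1.5-fold, with a median of 0.09. Of 9 genes that make or degrade hyaluronan, the ligand of Lyve1, Stab2 and Cd44, 3 had enough UMIs and none was past 1.5-fold (median 0.26). Of 11 further hyaluronan-binding genes 1 had enough UMIs, Habp4, which was lower at 33.5 and 17.7 CPM (-0.90).

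The hyaluronan genes themselves were read mostly outside macrophages. The cell-surface hyaluronidase gene Cemip2 was highest in endocardial ECs (1490 and 1313 CPM), Ugdh, which makes the precursor UDP-glucuronate, in fibroblasts (173 and 155 CPM), and the hyaluronidase gene Hyal2 in the Wnt9b-led ECs (291 and 298 CPM). Vcan, the hyaluronan-binding proteoglycan versican, was highest in fibroblasts (550 and 546 CPM). In fibroblasts Hyal2 was higher (17.5 and 29.8 CPM, 0.76), and in ECs the hyaluronan synthase gene Has3 was lower (18.8 and 11.1 CPM, -0.76). They were the 1 of 4 hyaluronan genes with enough UMIs past 1.5-fold in fibroblasts (9.58% of all genes) and the 1 of 4 in ECs (10.5%), while of the hyaluronan-binding genes none of 6 and none of 5 was. The hyaluronan-binding gene Itih5 was highest in fibroblasts (165 and 205 CPM), and Layn was at 69.9 and 83.9 CPM in lymphatic ECs and at 64.3 and 87.2 CPM in endocardial ECs.

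Among the other uptake genes, Cd36 was highest in capillary ECs (3357 and 3988 CPM), Lrp1 in fibroblasts (1801 and 2020 CPM) and the lysosomal receptor gene Scarb2 in endocardial ECs (337 and 368 CPM). The lectin genes Mrc2 (fibroblasts, 287 and 234 CPM), Pla2r1 (pericytes, 380 and 268 CPM) and Colec11 (pericytes, 414 and 751 CPM) had no macrophage peak. Fth1, the ferritin heavy chain, was at 529 and 708 CPM in cardiomyocytes and at 614 and 610 CPM in mesothelial cells, and the phospholipid transfer gene Pltp was highest in macrophages (669 and 916 CPM). Of the resident programme, F13a1 was highest in macrophages (2847 and 3382 CPM). The transcription factor gene Maf was at 1313 and 1626 CPM in macrophages and at 1110 and 1653 CPM in lymphatic ECs, and the growth arrest gene Gas6 at 705 and 714 CPM in the Wnt9b-led ECs and at 597 and 727 CPM in mesothelial cells. Past 1.5-fold in ECs were Scara3 (0.69), Colec11 (1.23) and Cbr2 (0.69) higher and Mrc2 (-1.28) lower, and in fibroblasts Colec11 (1.20) and Pf4 (1.08) higher.

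The genes with the pattern most like each receptor were named over 28 points, the levels in 14 cell types of 2 libraries, which share libraries and depth. Mrc1 was most like the macrophage genes Lyz2 and C1qa (Pearson r 0.90 for both), followed by Ptafr (0.88), and Cd163 most like Slc11a1 (0.94), Fcrls (0.93) and Cd300c2 (0.90). Msr1 was most like Klra2 (0.86), Lyz2 (0.84) and Tifab (0.79). Lyve1 was most like Abca1, Washc5 and its fellow receptor Stab1 (0.79 each), and Stab1 most like Map3k11 and Pxn (0.82 each) and Abca1 (0.80). Colec12 was most like Plekhg3 (0.85), Gm6277 (0.84) and Ckb (0.83), and Scarb1 most like Kitl (0.82), Mcf2l (0.73) and Slc6a6 (0.71). Cd44 was most like Atxn7l1 and Ap1g2 (0.89 each) and Glipr1 (0.86). Stab2, with 97 UMIs, was left out.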

How the data were processed

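For each library the authors deposited a matrix of UMI counts per gene and nucleus, not normalized. The submitters' processing notes name GRCm38 and mm10, and the aligner, the counter and the annotation are not given in the sources used here. Barcodes under 200 genes or over 20% mitochondrial UMIs were dropped and doublets were removed with Scrublet in each library. Both libraries were clustered together (scanpy 1.11.5, python 3.11.15, 2000 variable genes, 30 principal components, 15 neighbours, Leiden resolution 1), and clusters were named where at least 3 markers were detected. Sub-cluster resolutions of 0.5 and 1, the calling of MP nuclei not named dendritic as macrophages, and the use of types with at least 50 nuclei per library in orders of levels were chosen after seeing the data. UMIs were summed by type and library. Intervals are exact Poisson for CPM, Clopper-Pearson for shares and conditional binomial for log2 ratios, with 0.5 UMI added to each sum, and no test was made with 1 library per group. Intervals and floors (3 counts) cover counting error only. The receptor genes and lists were chosen with earlier results of these data known. Named were all 9 receptors, the 3 genes of each list with most UMIs, list genes past 1.5-fold in macrophages, ECs or fibroblasts, and the 3 genes with at least 200 UMIs most correlated with each receptor on log2(CPM + 1). A list gene that met this rule is not reported here. The calculation of log2 ratios and their intervals was tested on simulated counts. Alternatives covered nucleus filters, doublets, clustering, totals, centring, depth, cluster mix, shared barcodes and thresholds. Clec7a was not analysed here.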

Additional observations from a re-analysis of the deposited data

Results flagged for a closer look

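The PD-1 inhibitor to control ratio of Lyve1 went in opposite directions in different cell types. It was higher in macrophages (log2 ratio 0.82), fibroblasts (0.59) and cardiomyocytes (0.63) and lower in the EC cluster led by Wnt9b and Hapln1 (-1.25). The difference between cell types was not tested, since each group is 1 library. In fibroblasts and cardiomyocytes the Lyve1 level was at most 24.4 CPM, against 485 and 856 CPM in macrophages, and the intervals of both ratios included 0.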

How the results depend on the processing

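Over 57 log2 ratios and up to 16 alternatives, 776 of 802 comparisons stayed within the counting interval of the reported ratio, 25 moved outside it and 1 reversed. A reversal was counted only where the reported ratio was past 1.5-fold. It was Cd163 in dendritic cells, at -0.64 with at least 500 genes per nucleus. Ratios under 1.5-fold also changed sign in some settings. In macrophages Mrc1 (-0.04), Stab1 (-0.08) and Colec12 (-0.32) did so when each library was clustered alone. When each library was clustered alone, the macrophage ratios were 0.37 for Cd163, 0.42 for Lyve1 and -0.16 for Cd44, and 146 of the control macrophages became dendritic cells while 73 PD-1 inhibitor dendritic cells became macrophages. Lyve1 in macrophages was also at 0.42 with the same mix of finer sub-clusters, an alternative chosen after seeing the data, and Cd44 at -0.84 after thinning. The receptors past 1.5-fold in macrophages numbered 2 in the report (Cd163 and Lyve1), 0 when each library was clustered alone and 0 at 2-fold. After thinning Cd163 was just short (0.58). Cd44 was past 1.5-fold lower in 5 settings (at most 5% mitochondrial UMIs, Leiden resolutions of 0.5 and 2, mean over nuclei, thinning). In ECs the count was 2 in the report, 1 with a mean over nuclei and with the same mix of clusters (Cd163), 1 with at least 500 genes (Scarb1, lower), 1 after thinning (Colec12, lower) and 0 at 2-fold. In fibroblasts it was 1 in the report (Lyve1), 1 with a mean over nuclei (Scarb1, lower, with Lyve1 at 0.55) and 0 after thinning and at 2-fold. With fewer than 50 UMIs in a type, ratios were limited by depth. No paired analysis was possible because each group has 1 library and the groups share only replicate number 1.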
